A study of Arabidopsis thaliana with 22 samples.

Results

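The xyloglucan endotransglucosylase/hydrolase (XTH) family of Arabidopsis was followed across all 6 groups of the experiment. The 33 members were taken by their locus identifiers, from *XTH1* to *XTH33*, out of 32833 genes in the deposited table. The 24 members whose mean over the 22 libraries reached 10 normalized reads were described in full and tested among the 16331 genes that passed the same minimum. RefSeq lists all 33 names, with *XTH22*, *XTH23* and *XTH27* as synonyms of *TCH4*, *XTR6* and *EXGT-A3*.

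Libraries counting the 3′ ends of mRNA (QuantSeq) had been made from whole 7-day-old seedlings in the Col-0 ecotype. With 250 nM brassinazole (BRZ), an inhibitor of brassinosteroid (BR) synthesis, there were 4 libraries of *baf1*, 3 of *bes1-D* and 3 of WT. On medium with the solvent DMSO and no BRZ there were 4 libraries of each of the 3 genotypes. The *baf1* mutant is a single T-DNA insertion line in the gene of the F-box protein BAF1, and *bes1-D* carries a gain-of-function allele of the BR transcription factor BES1 that had been moved into Col-0. All groups grew on Linsmaier and Skoog medium with sucrose at the same temperature. Replicates were described as biological, but the labels tie none of them to a plate or a day, and p-values measure the spread between these libraries.

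XTH enzymes act on xyloglucan, the hemicellulose that coats and links cellulose microfibrils in the primary wall of dicots. They cut a xyloglucan chain and join the new end to another chain (endotransglucosylase activity) or, in a few members, to water (hydrolase activity), and so let the wall be rebuilt while a cell expands. BRs promote cell expansion, and the *XTH22* gene, also named *TCH4*, is a classical BR-induced and touch-induced gene. BES1 binds E-boxes (CANNTG) and BR response elements (BRRE, CGTGTG or CGTGCG) in DNA. BAF1 was described by the study as a ubiquitin ligase subunit for BES1, so that the comparisons of *baf1* and *bes1-D* with WT, with and without BRZ, ask how transcripts respond to more BES1 protein.

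The 250 bases upstream of the annotated gene start are shown for 4 of the members that passed the test in at least 2 comparisons, since these carry most of what follows. The sequences run 5′ to 3′ and come from the RefSeq assembly TAIR10.1, with E-boxes in capitals. The deposited table holds no coordinates.
XTH15 (chr4:8138393-8138642, minus strand): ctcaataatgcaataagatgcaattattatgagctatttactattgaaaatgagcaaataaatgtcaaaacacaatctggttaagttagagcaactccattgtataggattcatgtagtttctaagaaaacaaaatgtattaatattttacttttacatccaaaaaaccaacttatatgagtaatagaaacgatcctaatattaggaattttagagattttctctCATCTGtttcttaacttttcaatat
XTH6 (chr5:26298478-26298727, plus strand): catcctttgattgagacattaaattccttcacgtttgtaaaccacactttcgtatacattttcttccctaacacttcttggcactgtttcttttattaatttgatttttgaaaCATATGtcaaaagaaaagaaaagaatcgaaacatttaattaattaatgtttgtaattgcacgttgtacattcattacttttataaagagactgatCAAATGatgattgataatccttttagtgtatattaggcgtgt
XTH9 (chr4:1415367-1415616, plus strand): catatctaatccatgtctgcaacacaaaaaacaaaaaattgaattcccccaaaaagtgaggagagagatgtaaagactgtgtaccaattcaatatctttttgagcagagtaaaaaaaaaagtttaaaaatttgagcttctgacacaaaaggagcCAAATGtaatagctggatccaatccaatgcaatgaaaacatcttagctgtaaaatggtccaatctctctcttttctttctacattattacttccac
XTH7 (chr4:17777446-17777695, minus strand): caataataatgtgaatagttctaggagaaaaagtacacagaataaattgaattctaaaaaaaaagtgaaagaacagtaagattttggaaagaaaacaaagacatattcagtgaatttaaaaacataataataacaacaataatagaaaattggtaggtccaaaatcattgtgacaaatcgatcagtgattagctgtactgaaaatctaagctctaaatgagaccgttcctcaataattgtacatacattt
Among these 4 windows, *XTH6* held 2 E-boxes, *XTH15* and *XTH9* held 1 each, and *XTH7* held none. Over the reported members, 18 of 24 windows (75%) contained an E-box on either strand, against 55.3% of 27437 promoters of the same length. The G-box CACGTG, a form of the E-box, was in 0 of 24, against 6.49% of all promoters. BRRE letters in either orientation were in 3 of 24 (12.5%), those of *XTH8*, *XTH23* and *XTH25*, against 6.71% of all promoters. None of the 4 windows shown contained a BRRE or a G-box.

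The family was dominated by a few genes. *XTH4* (mean 1307 normalized reads over 22 libraries) and *XTH7* (1093) held 42.0% of all XTH reads, and with *XTH9* (506) and *XTH6* (413) they held 58.1%. Normalized reads are not divided by transcript length, and with 3′-end counting each transcript gives about 1 read. *XTH27* (387), *XTH24* (386) and *XTH28* (322) formed the next tier, followed by *XTH22* (195), *XTH30* (183), *XTH16* (149.8), *XTH15* (133) and *XTH31* (129). The ranges of neighbours in this order overlapped throughout.

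The other 12 reported members had means between 10.3 (*XTH33*) and 92.2 (*XTH19*). Between them lay *XTH14* (mean 75.9 normalized reads), *XTH17* (67.0), *XTH18* (55.8), *XTH8* (49.6), *XTH21* (38.8), *XTH32* (24.9), *XTH5* (22.4), *XTH23* (19.0), *XTH25* (15.01) and *XTH20* (13.7). The lowest of those reported, *XTH33* and *XTH20*, averaged 10.3 and 13.7 normalized reads, and the highest of those left out, *XTH13* and *XTH12*, averaged 9.25 and 7.41. The 9 members under the minimum were *XTH1*, *XTH2*, *XTH3*, *XTH10*, *XTH11*, *XTH12*, *XTH13*, *XTH26* and *XTH29*. Of these, *XTH1* was at 0 in all 22 libraries.

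**Figure D1:**
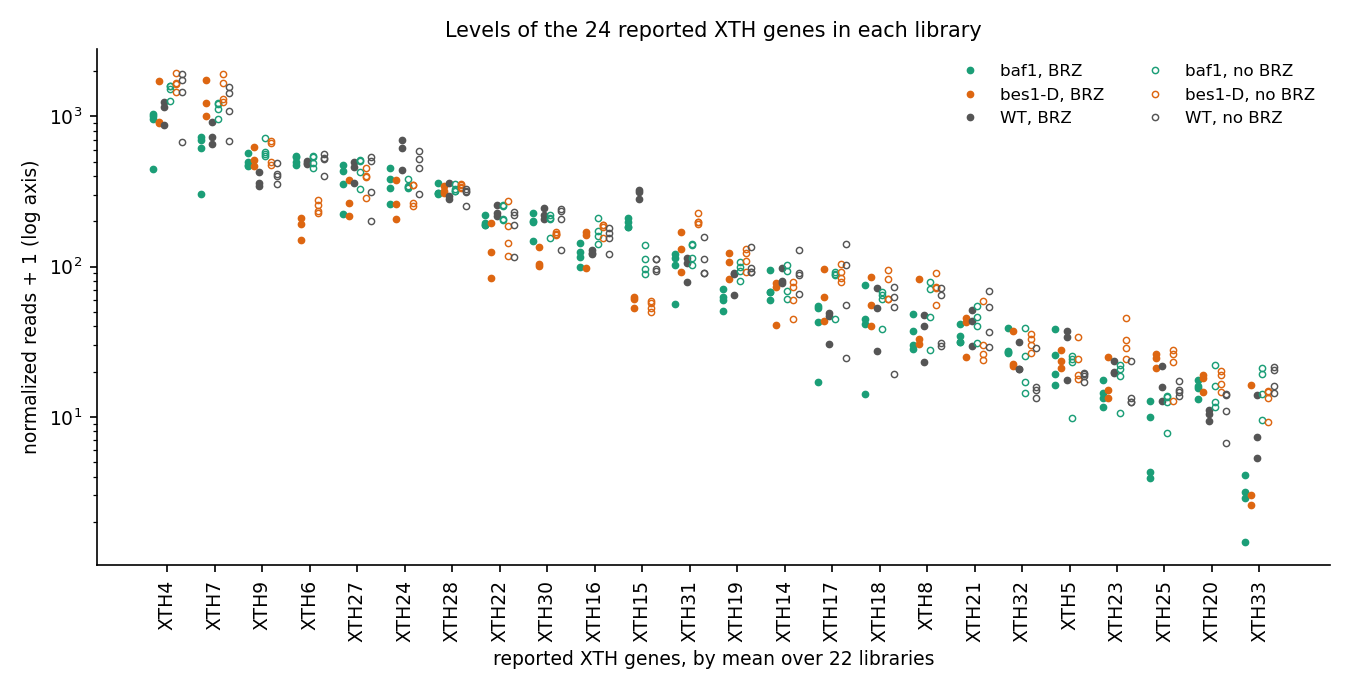
Normalized reads + 1 (log axis) of the 24 reported *XTH* genes, ordered by their mean, with 1 point per library and colours for the genotypes (filled with BRZ, open without). *XTH4* and *XTH7* lie highest, *XTH15* and *XTH6* split by genotype, and *XTH33* falls to under 5 normalized reads in all 4 *baf1* libraries with BRZ.

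By the usual division of the family, 6 of 11 members of group 1 (*XTH1* to *XTH11*), 12 of 15 of group 2 (*XTH12* to *XTH26*) and 6 of 7 of group 3 (*XTH27* to *XTH33*) were reported. Several lie side by side in the genome. *XTH23* and *XTH14* are 363 bases apart on chromosome 4, and *XTH24*, *XTH18* and *XTH19* follow each other there with 0 coding genes between them. Of 528 pairs of member transcripts, 2 shared an exact run of at least 50 bases, the length of a read, but 0 did so within the last 300 bases, where 3′ reads start. The longest run shared there was 32 bases.

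Estimated library depth was 2104950 to 5156945 reads (median 3762734), and pairs of replicates correlated at r = 0.945 to 0.977 over the genes tested. *BAF1* transcripts averaged 4.87 ± 5.95 normalized reads in *baf1* (SD, n = 4) against 267 ± 49.8 in WT (n = 3) with BRZ, and 9.78 ± 3.03 in *baf1* against 327 ± 49.2 in WT (n = 4 each) without it. All 10 shoot and all 15 root markers were detected in every group. The shoot marker sum was lower in *bes1-D*, at 63881 to 68243 against 96003 to 100304.8 normalized reads in WT with BRZ, and at 70485 to 79942 against 93556 to 102094 in WT without it. The markers did not move alike. With BRZ *LHCB1.1* averaged 12710 in *bes1-D* against 30299 in WT, but *FAMA* 137 against 140, *SPCH* 24.5 against 19.3 and *EPF2* 41.2 against 37.0. Without BRZ *RBCS1A* averaged 24901 in *bes1-D* against 22641 in WT and *GAPA1* 2354 against 2047, while *LHCB1.1* averaged 15951 against 31258. The root marker sum was 9724 to 14329 in *bes1-D* and 10673 to 12938 in WT over both treatments. Most of it was *PYK10*, which averaged 10369 in *bes1-D* against 10596 in WT with BRZ, so the sum says little about the other root markers. With BRZ *COBL9* averaged 17.7 in *bes1-D* against 39.7 in WT, *PRP3* 56.3 against 101 and *EXPA7* 45.4 against 86.1. *EXPA18*, *MYB36* and *NRT2.1* were higher in *bes1-D*, at 41.9 against 39.4, 38.4 against 33.4 and 9.89 against 4.27. Seed storage transcripts (12 genes) summed to 141 to 1779 in *baf1* with BRZ, to 25.7 to 298 in WT with BRZ, to 7.80 to 506 in *baf1* without BRZ and to 10.6 to 78.5 in WT without BRZ, with *bes1-D* at most at 21.9. In whole seedlings, fewer cells of a type and less RNA per cell cannot be told apart.

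A few libraries stood apart. Replicate 1 of *bes1-D* with BRZ correlated at r = 0.968 to 0.975 with the 4 *bes1-D* libraries without BRZ but at 0.959 and 0.964 with the other 2 *bes1-D* libraries with BRZ. The label puts this library in the group with BRZ, and a wrong label or a missed treatment was not tested. No other library correlated better with every library of the opposite treatment than with its own group. Replicate 1 of *bes1-D* with BRZ had the highest value of its group in 16 of 24 XTH members (66.7%), against 30.4% of all genes tested. In *bes1-D* without BRZ replicate 1 was highest in 50% of members, against 22.2% of all genes. In WT replicate 1 was highest in 50% with BRZ (against 27.8%) and 45.8% without BRZ (against 20.8%). In *baf1* replicate 1 was highest in 41.7% with BRZ (against 22.7%) and 16.7% without BRZ (against 20.8%). Replicate 4 of *baf1* with BRZ was lowest in its group in 15 members (62.5%, against 30.6% of all genes tested), replicate 2 of *baf1* without BRZ in 15 (62.5%, against 26.6%) and replicate 5 of WT without BRZ in 14 (58.3%, against 29.8%). Replicate 3 of *baf1* without BRZ was highest in its group in 15 members (62.5%, against 26.6%) and lowest in 0.

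In *baf1* with BRZ replicate 4 and in WT without BRZ replicate 5, *XTH17*, *XTH18* and *XTH4* had gaps of more than 1 on the log2 scale to the mean of their group's other libraries. Replicate 4 of *baf1* with BRZ had 13.2 normalized reads of *XTH18*, against 40.2 to 74.5 in the other 3, and 445 of *XTH4*, against 962 to 1034. Replicate 5 of WT without BRZ had 18.1 of *XTH18*, against 52.9 to 72.0, and 676 of *XTH4*, against 1462 to 1918. Counts of members that change when one of these libraries is left out are given both ways.

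**Figure D2:**
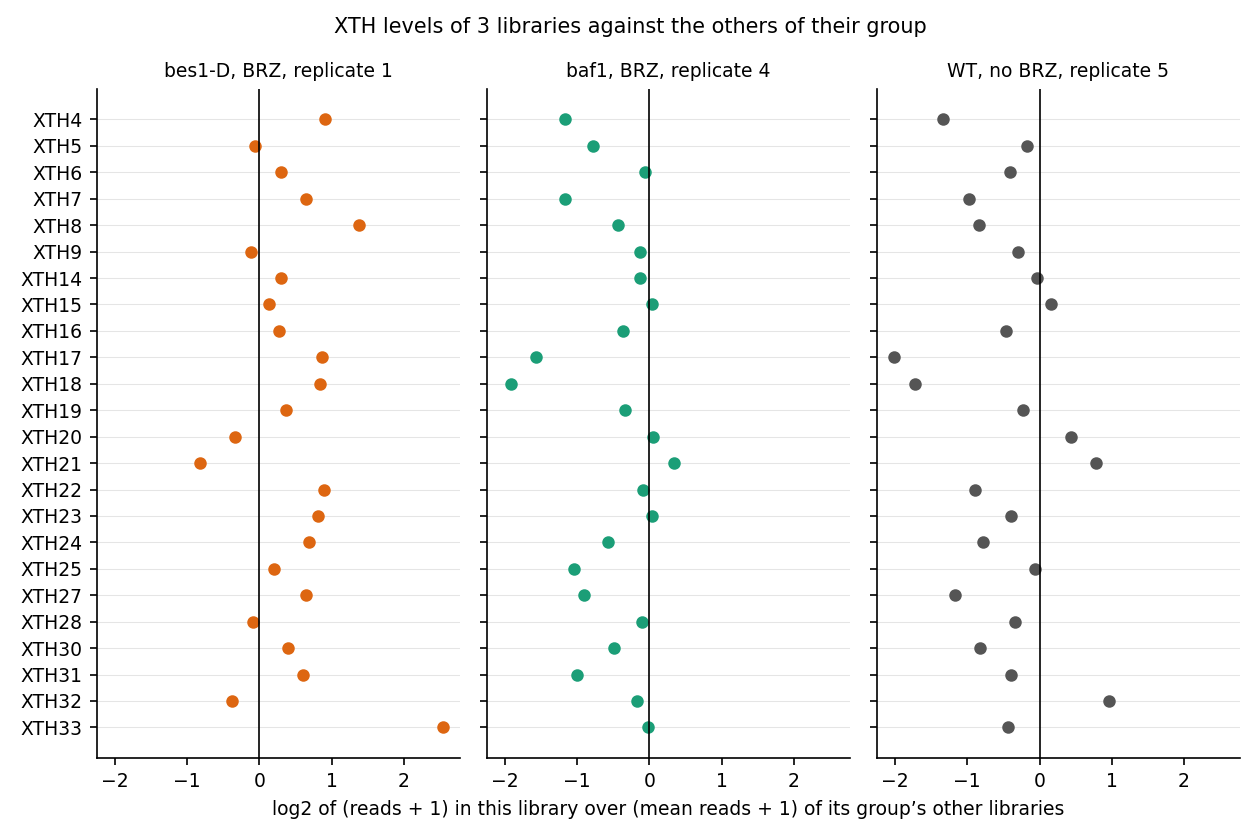
Log2 ratio of each reported *XTH* gene in 3 libraries to the mean of the other libraries of the same group, with 1 point per gene and a line at no difference. In replicate 1 of *bes1-D* with BRZ 18 of 24 points lie above the line, and in replicate 4 of *baf1* with BRZ and replicate 5 of WT without BRZ 20 of 24 lie below it.

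Between *bes1-D* and WT, members passed in both directions. With BRZ, 8 of the 24 members (33.3%) passed the test, 2 higher and 6 lower in *bes1-D* (limma, Benjamini-Hochberg adjusted p under 0.05), where 11.1% of all genes tested passed. By the criterion of the study, a fold change above 1.1 with an unadjusted p under 0.05, 9 members (37.5%) differed, 3 higher and 6 lower, against 24.3% of all genes. The median log2 fold change was 0.06 over the members and 0.04 over all genes. Without BRZ, 6 of 24 (25.0%) passed, 3 higher and 3 lower, against 7.50% of all genes, and 9 (37.5%) met the criterion of the study, 5 higher and 4 lower, against 22.3%. The medians were 0.25 for the members and 0.08 for all genes. The shoot marker sum moved with genotype in both contrasts, and its part in them was not tested.

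*XTH15* (AT4G14130), a group 2 member also known as *XTR7*, had the largest fold change of the members in this contrast with BRZ, where it had 61.7, 51.8 and 60.3 normalized reads in *bes1-D*, against 279, 313 and 321 in WT. Without BRZ it had 58.1, 51.7, 48.8 and 56.2 in *bes1-D*, against 92.0, 111, 95.3 and 111 in WT. The *bes1-D* libraries were lower than every WT library in both conditions. This was a log2 fold change of -2.37 (SE 0.17, limma with Benjamini-Hochberg adjusted p = 4.29e-09) with BRZ and of -0.92 (SE 0.14, limma adjusted p = 5.80e-04) without it.

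*XTH6* (AT5G65730), a group 1 member, was lower in *bes1-D* in both conditions as well. It had 209, 190.0 and 149 normalized reads in *bes1-D* with BRZ, against 504, 490.0 and 479 in WT. Without BRZ it had 254, 234, 276 and 225 in *bes1-D*, against 526, 557, 521 and 402 in WT. The groups did not overlap. The log2 fold change was -1.44 (SE 0.15, limma adjusted p = 1.36e-06) with BRZ and -1.01 (SE 0.12, limma adjusted p = 2.49e-05) without it. In both conditions *XTH15* and *XTH6* passed the test whichever library was left out.

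*XTH24* (AT4G30270), or *MERI5*, a group 2 gene first found as a meristem transcript, fell as well. With BRZ it had 377, 206 and 261 normalized reads in *bes1-D*, against 691, 437 and 614 in WT, a log2 fold change of -1.06 (SE 0.19, limma adjusted p = 8.52e-04). Without BRZ it had 346, 350.0, 251 and 263 in *bes1-D*, against 590.4, 455, 519.7 and 303 in WT, where replicate 5 of WT lay within the *bes1-D* range. That log2 fold change was -0.60 (SE 0.17, limma adjusted p = 0.0401), and -0.79 with an adjusted p of 3.25e-05 by limma without this WT library. It passed in 2 of the 8 fits that left out 1 library, with a limma adjusted p of up to 0.135 and a log2 fold change of -0.47 to -0.79.

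*XTH9* (AT4G03210), a group 1 member, rose in *bes1-D* in both conditions. It had 508, 470.1 and 629 normalized reads in *bes1-D* with BRZ, against 344, 360.2 and 423 in WT (log2 fold change 0.51, SE 0.15, limma adjusted p = 0.0286). Without BRZ it had 497, 477, 685 and 669 in *bes1-D*, against 399, 415, 486 and 353 in WT (0.48, SE 0.13, limma adjusted p = 0.0317). The groups overlapped without BRZ, where the lowest *bes1-D* library was under the highest WT one.

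**Figure D3:**
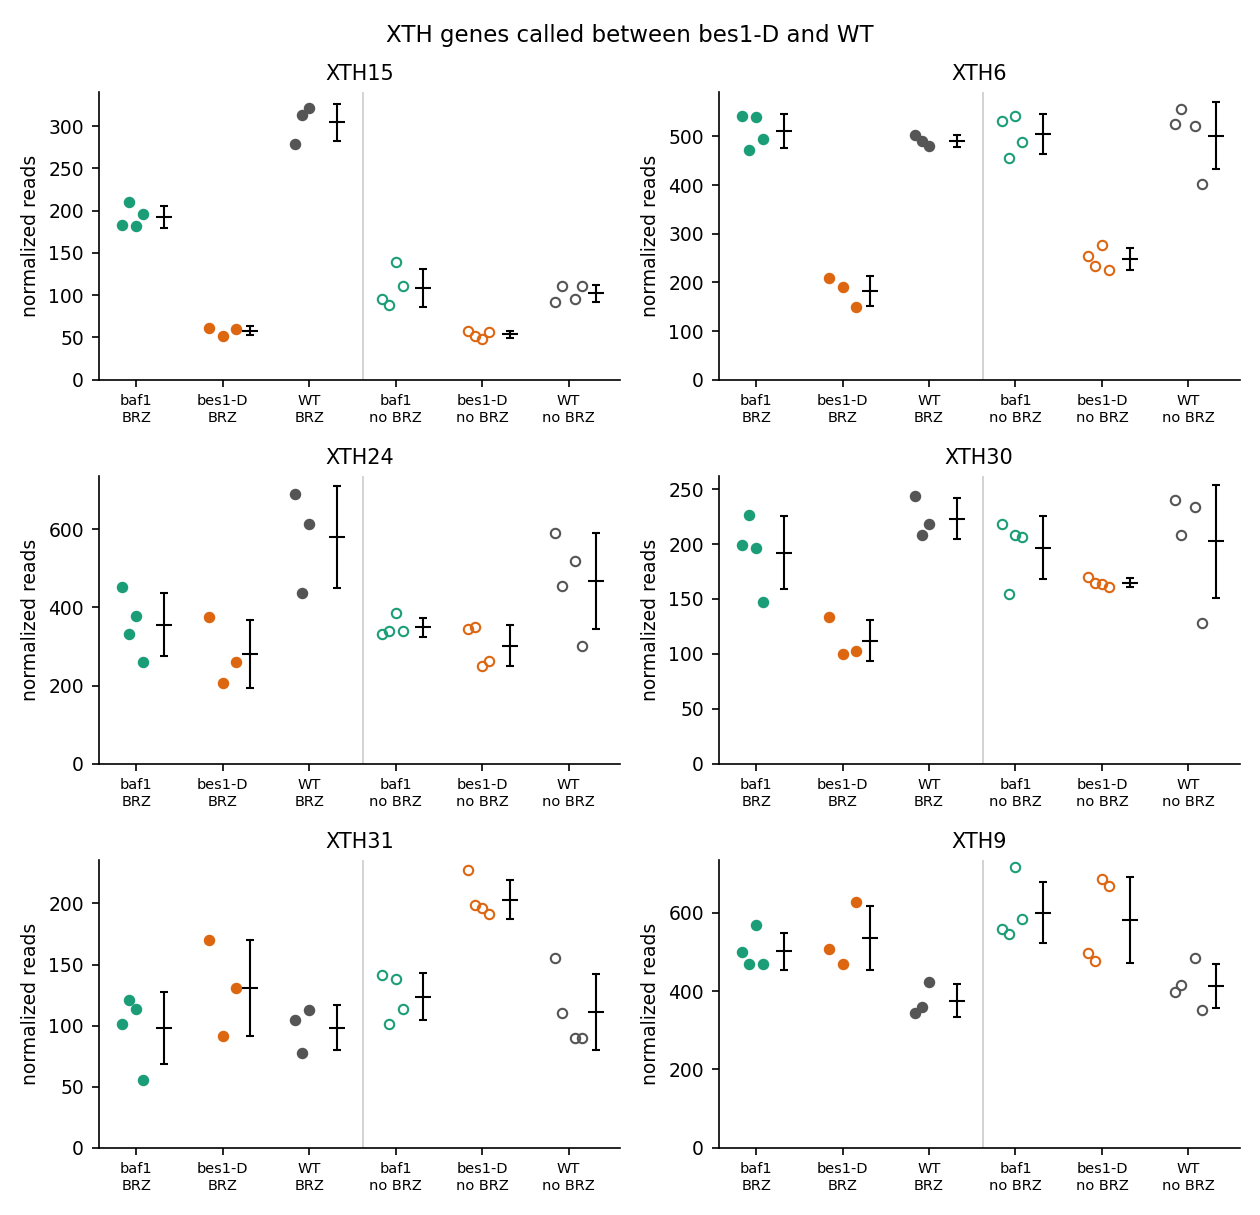
Normalized reads of 6 *XTH* genes in each library (points) with the mean and SD of each group (bars), for *baf1*, *bes1-D* and WT with BRZ (filled) and without it (open). *XTH15* stays at 48.8 to 61.7 in all 7 *bes1-D* libraries and reaches 279 to 321 in WT with BRZ, and *XTH6* is lower in every *bes1-D* library than in any other.

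The remaining members passed in 1 of the conditions only, and whether the genotype difference itself differed between conditions is given by the interaction test further on. With BRZ, the group 3 gene *XTH30* had 134, 100.1 and 102 normalized reads in *bes1-D*, against 244, 208 and 218 in WT (log2 fold change -0.996, SE 0.17, limma adjusted p = 4.46e-04). *XTH22* had 194, 83.3 and 125, against 258, 227 and 215 (-0.87, SE 0.22, limma adjusted p = 0.0119). *XTH7* had 1744, 1227 and 1006, against 915, 653 and 732 (0.77, SE 0.17, limma adjusted p = 0.00509). None of these 3 pairs of groups overlapped, but the share of all genes tested without overlap was not computed in this or any other comparison. *XTH27*, a group 3 gene, had 375, 265 and 216 in *bes1-D*, against 496, 359 and 459 in WT, with overlap (-0.64, SE 0.18, limma adjusted p = 0.0234).

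Without BRZ, *XTH31* and *XTH23* rose in *bes1-D*. *XTH31*, a group 3 member with hydrolase activity, had 227, 198, 196 and 191 normalized reads in *bes1-D*, against 156, 111, 89.6 and 89.8 in WT (log2 fold change 0.90, SE 0.16, limma adjusted p = 0.00158). *XTH23*, or *XTR6*, had 44.6, 31.5, 27.8 and 23.4, against 12.4, 11.5, 22.6 and 11.6 (1.099, SE 0.28, limma adjusted p = 0.0236). Neither pair of groups overlapped. The neighbour of *XTH23*, *XTH14*, had a log2 fold change of -0.53 (SE 0.21, limma adjusted p = 0.141).

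Single libraries changed how many members passed in these contrasts. With BRZ, 5 passed without replicate 1 of WT (against 6.83% of all genes tested) and 5 without replicate 5 of *bes1-D* (against 6.54%). In each case *XTH9*, *XTH22* and *XTH27* no longer passed. The same 8 passed without replicate 1 of *bes1-D*, the library that stood apart, against 12.8% of all genes tested. Without BRZ, 3 passed when replicate 2 of WT was left out (*XTH6*, *XTH15* and *XTH31*), against 4.53% of all genes tested. When replicate 5 of WT was left out 8 passed, the same 6 with *XTH30* and *XTH32*, beside 1803 of 16331 genes tested. Leaving out each of the 8 libraries in turn, *XTH9* passed in 4 fits and *XTH23* in 5.

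BRZ alone changed few members in WT. *XTH15* was the 1 of 24 members (4.17%) to pass, against 0.600% of all genes tested, and 3 (12.5%) met the criterion of the study, 1 higher and 2 lower, against 10.1%. *XTH15* had 279, 313 and 321 normalized reads in WT with BRZ, against 92.0, 111, 95.3 and 111 in WT without it. These groups were far apart, with a log2 fold change of 1.57 (SE 0.14, limma adjusted p = 5.21e-05), and it passed under all 16 alternatives. The other 2 were *XTH7*, with 915, 653 and 732 against 1578, 1081, 1423 and 689 (-0.58, SE 0.21, limma adjusted p = 0.337), and *XTH33*, with 4.29, 6.28 and 12.9 against 19.6, 20.4, 15.1 and 13.3 (-1.14, SE 0.39, limma adjusted p = 0.292). The *XTH33* groups did not overlap and the *XTH7* groups did.

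Replicate 5 of WT without BRZ decided this count. Without that library 4 members passed, beside 269 of 16331 genes tested, with *XTH4* (log2 fold change -0.65, limma adjusted p = 0.00415), *XTH7* (-0.82, 8.12e-04) and *XTH17* (-1.17, 0.0202) lower with BRZ beside the higher *XTH15*.

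In *baf1*, several members were lower with BRZ. There 5 of 24 (20.8%) passed, 1 higher and 4 lower with BRZ, against 1.81% of all genes tested, and 8 (33.3%) met the criterion of the study, 1 higher and 7 lower, against 12.4%. The median log2 fold change was -0.28 for the members and 0.01 for all genes. The highest sums of seed storage transcripts were in *baf1* libraries with BRZ. Without the 4 libraries highest in these transcripts, an alternative chosen after the data were seen, 4 members passed (*XTH4*, *XTH7*, *XTH15* and *XTH33*), against 3.36% of all genes tested. The 4 libraries were replicates 2 and 4 of *baf1* with BRZ, replicate 1 of *baf1* without it and replicate 2 of WT with BRZ.

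*XTH15* again rose, with 184, 210.0, 182 and 196 normalized reads in *baf1* with BRZ, against 95.02, 88.8, 139 and 111 in *baf1* without it (log2 fold change 0.84, SE 0.14, limma adjusted p = 0.00300). *XTH4* and *XTH7*, the most abundant members, fell. *XTH7* (AT4G37800) had 728, 699, 618 and 303 with BRZ, against 1217, 961, 1233 and 1122 without it (-1.02, SE 0.19, limma adjusted p = 0.00742). *XTH4*, or *EXGT-A1*, had 1034, 1007, 962 and 445, against 1589, 1265, 1591 and 1520.2 (-0.86, SE 0.19, limma adjusted p = 0.0242). Replicate 4 with BRZ was the lowest for both genes, and the groups did not overlap with or without it. Without that library the fold changes were -0.73 for *XTH7* and -0.57 for *XTH4*, and 5 members still passed, against 3.42% of all genes tested.

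*XTH19*, one of a set of similar group 2 genes expressed in roots, had 69.6, 59.2, 61.3 and 49.95 normalized reads with BRZ, against 106, 79.1, 91.9 and 98.1 without it (log2 fold change -0.64, SE 0.15, limma adjusted p = 0.0398). *XTH33*, the scarcest of the reported members, had 3.08, 0.474, 2.17 and 1.88, against 8.46, 20.02, 18.4 and 13.1 (-2.49, SE 0.47, limma adjusted p = 0.00766). In the *baf1* libraries with BRZ 1 sequenced read was worth an estimated 0.828 to 1.33 normalized reads, so these *XTH33* values stand for a few reads at most. Its fold change ran between -1.51 and -3.08 over the alternatives tried. Between 2 and 5 members passed when a library was left out. Over these 8 fits *XTH7* and *XTH15* passed in all 8, *XTH33* in 7, *XTH4* in 5 and *XTH19* in 3. Without replicate 3 of *baf1* without BRZ 2 passed (*XTH7* and *XTH15*), against 1.02% of all genes tested. Without replicate 1 or replicate 4 of *baf1* without BRZ 3 passed, against 1.02% and 0.955% of all genes tested.

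**Figure D4:**
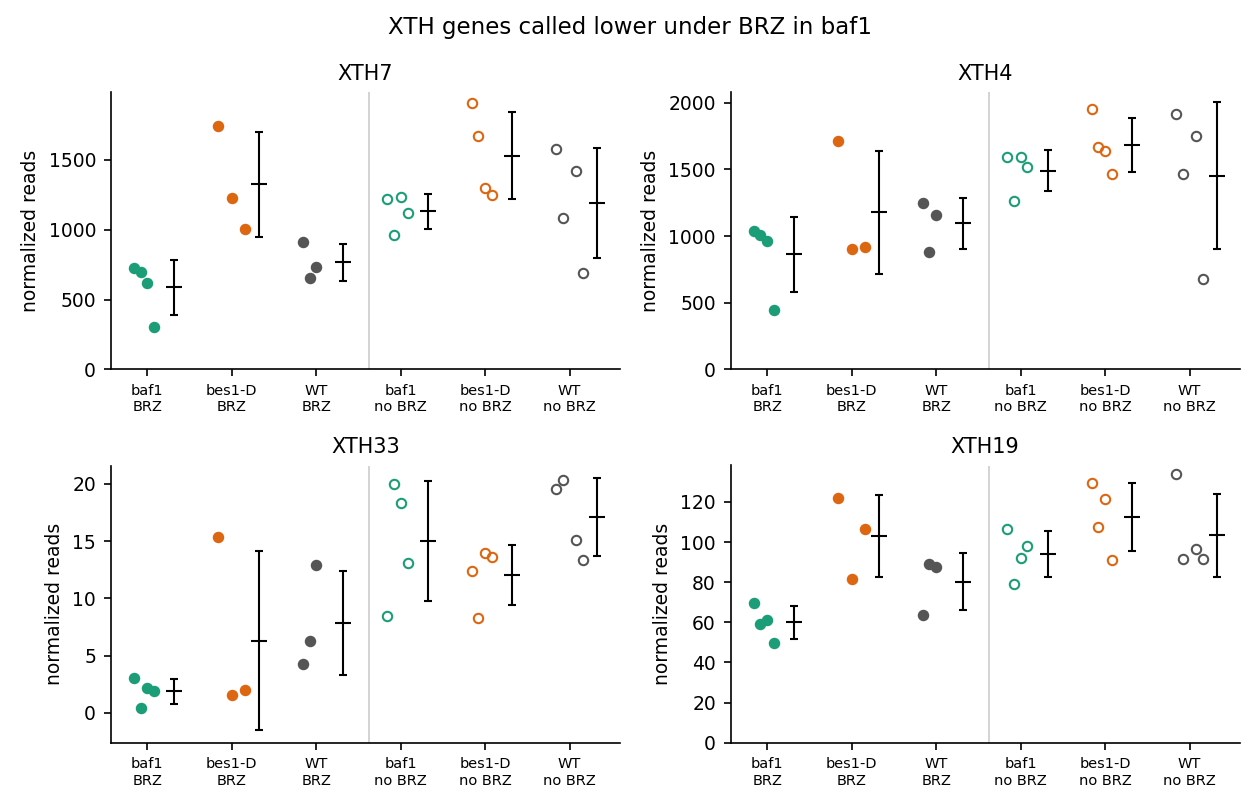
Normalized reads of the 4 *XTH* genes that passed as lower with BRZ in *baf1*, in each library (points) with the mean and SD of each group (bars), with BRZ filled and without it open. For each gene the 4 *baf1* libraries with BRZ lie under the 4 without it, and replicate 4 with BRZ is the lowest for *XTH7*, *XTH4* and *XTH19*.

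In *bes1-D* the effect of BRZ hinged on replicate 1, the library that stood apart. With all 3 libraries, 0 of 24 members passed by limma with Benjamini-Hochberg adjustment, against 0.576% of all genes tested, although 10 members (41.7%) had an unadjusted p under 0.05 and met the criterion of the study, all lower, against 14.6%. Without replicate 1, 9 members passed, all lower with BRZ, against 5.85% of all genes tested. No other tool was run, since the deposited values are not counts.

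The 9 were *XTH4*, *XTH6*, *XTH8*, *XTH17*, *XTH23*, *XTH27*, *XTH30*, *XTH31* and *XTH33*. *XTH33* had 15.3, 1.59 and 2.02 normalized reads in *bes1-D* with BRZ, against 12.4, 8.24, 13.9 and 13.6 without it (log2 fold change -1.35, SE 0.54, limma adjusted p = 0.238, and -2.20 with an adjusted p of 0.00940 without replicate 1). *XTH8* had 82.2, 29.7 and 32.2, against 89.9, 71.9, 70.6 and 54.4 (-0.71, limma adjusted p = 0.221, and -1.17 with 0.00212). *XTH4* had 1712, 901 and 919, against 1955, 1670.3, 1634 and 1463 (-0.57, limma adjusted p = 0.103, and -0.88 with 3.95e-05). For *XTH8* and *XTH4* replicate 1 lay within the range of the libraries without BRZ and for *XTH33* above it, while the other 2 lay below it for all 3 genes.

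For *XTH6*, *XTH30* and *XTH31* the groups did not overlap even with replicate 1, but none of them passed with all libraries. The share of all genes without overlap was not computed. *XTH6* had 209, 190.0 and 149 normalized reads with BRZ, against 254, 234, 276 and 225 without it (log2 fold change -0.45, SE 0.14, limma adjusted p = 0.129). *XTH30* had 134, 100.1 and 102, against 170.3, 165, 164 and 161 (-0.56, SE 0.14, limma adjusted p = 0.0691). *XTH31* had 170.0, 91.5 and 131, against 227, 198, 196 and 191 (-0.67, SE 0.17, limma adjusted p = 0.0655). *XTH15* averaged 57.9 ± 5.38 with BRZ (SD, n = 3) and 53.7 ± 4.25 without it (n = 4).

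**Figure D5:**
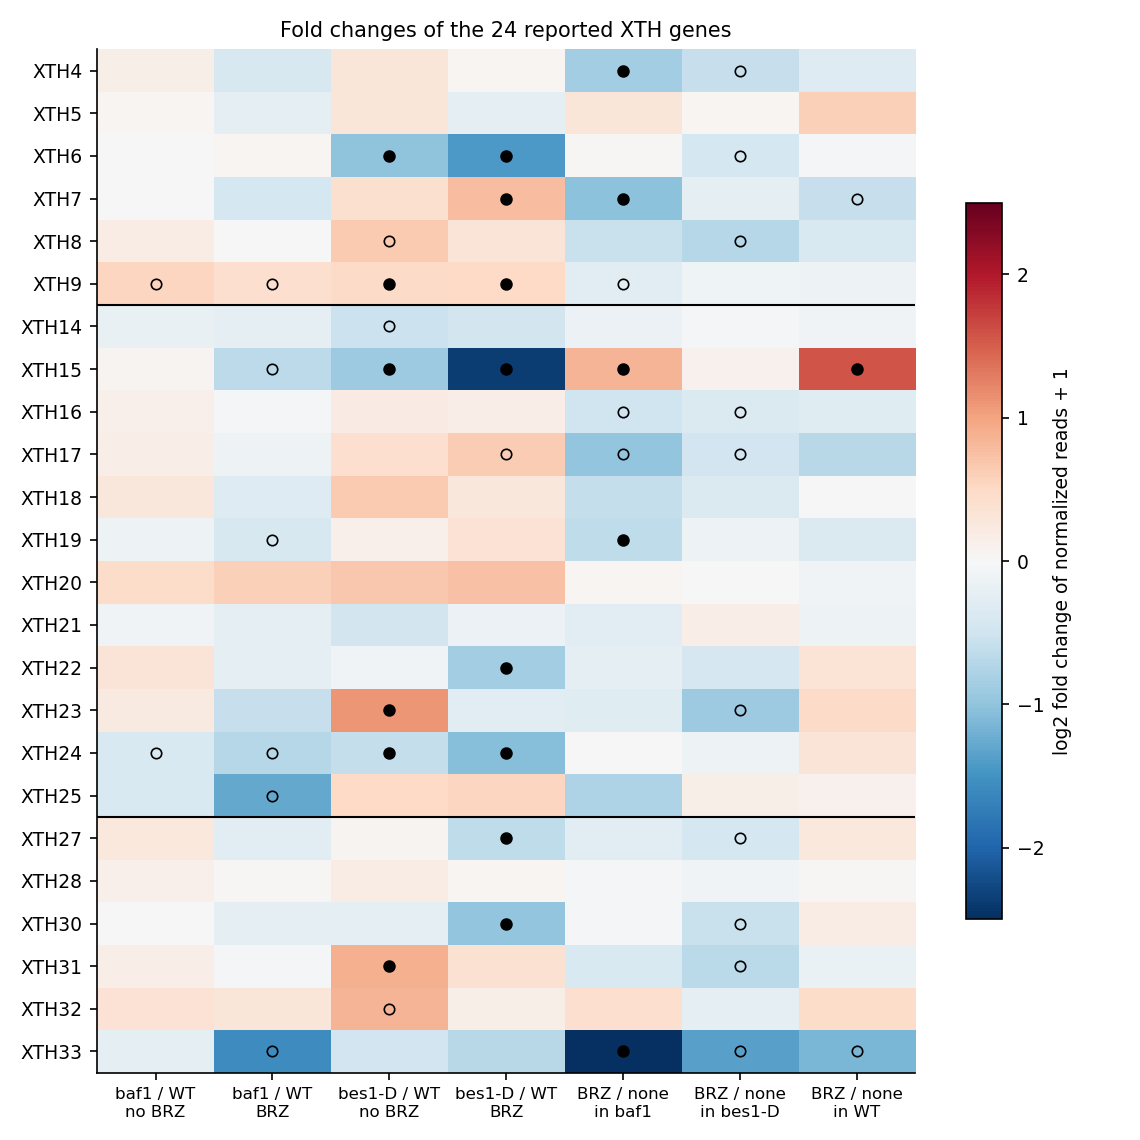
Log2 fold changes of the 24 reported *XTH* genes (rows, with lines between groups 1, 2 and 3) in 7 comparisons (columns), on a colour scale from -2.5 to 2.5. Filled circles mark an adjusted p under 0.05 and open circles a fold change above 1.1 with an unadjusted p under 0.05, and *XTH15* has filled circles in both *bes1-D* columns and in BRZ columns of *baf1* and WT.

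In *baf1* no member passed the test against WT. With BRZ, 0 of 24 passed by limma with Benjamini-Hochberg adjustment, against 0.0490% of all genes tested, and 6 (25.0%) had an unadjusted p under 0.05 and met the criterion of the study, 1 higher and 5 lower, against 5.57%. Without BRZ, 0 passed by limma, against 0.129%, and 2 (8.33%) had an unadjusted p under 0.05 and met the criterion, against 10.3%. The median log2 fold changes of the members were -0.24 with BRZ and 0.13 without it, against 0.01 and 0.04 over all genes.

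*XTH9* met the criterion in both conditions. It had 499.6, 470.5, 569 and 469 normalized reads in *baf1* with BRZ, against 344, 360.2 and 423 in WT (log2 fold change 0.42, SE 0.12, limma adjusted p = 0.575). Without BRZ it had 559, 546, 716 and 583 in *baf1*, against 399, 415, 486 and 353 in WT (0.54, SE 0.11, limma adjusted p = 0.0758). Every *baf1* library was above every WT library in both conditions. Without BRZ, *XTH9* alone passed when replicate 4 of WT was left out (limma adjusted p = 0.0382), and *XTH9* (0.0137) and the lower *XTH24* (log2 fold change -0.57, 0.00171) passed when replicate 5 of WT was left out. Of all genes tested, 0.153% passed without replicate 4 of WT and 0.992% without replicate 5, against 0.129% with all libraries.

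*XTH15* had 184, 210.0, 182 and 196 normalized reads in *baf1* with BRZ, against 279, 313 and 321 in WT. The *baf1* libraries lay under all WT libraries and above all those without BRZ, with a log2 fold change of -0.65 (SE 0.12, limma adjusted p = 0.0797). It passed without replicate 4 of *baf1* (limma adjusted p = 0.0348), where 0.110% of all genes tested passed, against 0.0490% with all libraries. The 4 libraries highest in seed storage transcripts include this replicate 4, and with BRZ also replicate 2 of *baf1* and replicate 2 of WT. Without the 4 libraries, replicates 1 and 3 of each genotype remained. There 2 members passed, *XTH15* (-0.71, limma adjusted p = 0.0374) and *XTH24* (-0.65, 0.0281), against 0.214% of all genes tested. The part of seed storage transcripts was not tested apart from that of replicate 4. *XTH33* had 3.08, 0.474, 2.17 and 1.88 in *baf1*, against 4.29, 6.28 and 12.9 in WT, at most a few reads in *baf1* and with no overlap (-1.58, SE 0.63, limma adjusted p = 0.852).

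Whether the response to BRZ differed from that of WT was tested as an interaction. For *bes1-D*, 1 of 24 members (4.17%) passed, against 0.239% of all genes tested, and 5 (20.8%) had an unadjusted p under 0.05 (*XTH6*, *XTH15*, *XTH22*, *XTH23* and *XTH30*), against 13.7% of all genes. The member that passed was *XTH15*, whose log2 change with BRZ was smaller in *bes1-D* than in WT (interaction -1.46, SE 0.20, limma adjusted p = 0.00163), and it passed under all 23 alternatives. For *baf1*, 0 of 24 passed by limma with Benjamini-Hochberg adjustment, against 0% of all genes tested (0 of 16331). There 3 members (12.5%) had an unadjusted p under 0.05, against 5.79% of all genes. They were *XTH15* (-0.72, SE 0.19), *XTH22* (-0.57, SE 0.24) and *XTH33* (-1.35, SE 0.60), with limma adjusted p-values of 0.803, 0.848 and 0.849.

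These comparisons share libraries, since each WT and mutant group enters several of them, and the counts above are not independent of each other. Summed over the family, XTH transcripts reached 4712 ± 814 normalized reads in *baf1*, 5195 ± 1204 in *bes1-D* and 5500 ± 586 in WT with BRZ (SD, n = 4, 3 and 3). Without BRZ the sums were 6205 ± 659, 6451 ± 620 and 6012 ± 1572 (n = 4 each). Of the 7 pairs of groups compared, the ranges were apart in 1, where all *baf1* libraries with BRZ (3503 to 5269.6) were under those without it (5328 to 6887).

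Other genes of xyloglucan were followed as 2 lists. Of 13 synthesis genes (the *CSLC* backbone synthases, the *XXT* xylosyltransferases, *MUR3*, *XLT2* and *FUT1*), 12 were tested and 2 (16.7%) passed in *bes1-D* against WT with BRZ, against 11.1% of all genes tested. *XLT2*, a galactosyltransferase, averaged 133 ± 7.09 normalized reads in *bes1-D* against 74.4 ± 14.96 in WT (SD, n = 3 each, log2 fold change 0.85, limma adjusted p = 0.00543). *XXT5* averaged 58.4 ± 20.1 in *bes1-D* against 96.0 ± 17.2 in WT (-0.75, limma adjusted p = 0.0470). In the other 6 comparisons of pairs of groups 0 of 12 passed by limma, with 0 to 4 at an unadjusted p under 0.05.

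Of the 3 genes for trimming the side chains, 1 passed in each of 2 comparisons, in which 11.1% (*bes1-D* against WT with BRZ) and 1.81% (BRZ in *baf1*) of all genes tested passed. The xylosidase gene *XYL1* averaged 1104 ± 79.9 normalized reads in *bes1-D* against 1488 ± 111 in WT with BRZ (SD, n = 3 each, log2 fold change -0.43, limma adjusted p = 0.0310). The galactosidase gene *BGAL10* averaged 106 ± 7.35 in *baf1* with BRZ against 157 ± 20.7 in *baf1* without it (SD, n = 4 each, -0.55, limma adjusted p = 0.0325).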

How the data were processed

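QuantSeq 3′ mRNA libraries of 22 samples were analysed. According to the methods of the study, total RNA of 7-day-old seedlings was sequenced as 50-bp single-end reads on an Illumina HiSeq instrument and mapped to TAIR10 with the BlueBee Lexogen QuantSeq pipeline. The submitters' processing notes name STAR, HTSeq and edgeR, with versions not given in the sources used here. The labels give long days in the growth protocol and continuous light for 7 days in the treatment protocol.

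The authors deposited 1 table of TMM-normalized signal, called normalized reads here, for 32833 genes. Column totals lay within 0.0482% of 3635492, so raw depth had been removed. Depth was estimated from 300 genes with low means by undoing the quantile adjustment to a common library size. No count model was run on these values, and 0 per-sample columns were left out. The study used PoissonSeq, which needs counts.

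Groups came from the sample labels. Values were tested as log2(value + 1) with limma 3.58.1 in R 4.3.3 (lmFit and eBayes with a mean-variance trend, two-sided), with the libraries of the 2 groups compared only, for the 16331 genes with a mean of at least 10. A gene passed at a Benjamini-Hochberg adjusted p under 0.05 over all genes tested. Interactions were fitted to 4 groups. The method was tested on simulated data. Alternatives were pseudocounts of 0.1 and 5, no filter, a minimum mean of 50, median-of-ratios scaling, a fit to all 22 libraries, a replicate block, no trend, the fold criteria and leaving out each library.

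Every member with a mean of at least 10 was named with its level. Values per library were given for members that passed in at least 1 comparison and for members that met the criterion of the study with no overlap between groups, and members of the xyloglucan lists were named where they passed. *XTH8*, *XTH14* and *XTH17* were also given values, chosen after these were seen. The members and lists were chosen with earlier results of these data known. Promoter windows are from RefSeq TAIR10.1, whose nuclear chromosomes are those of TAIR10. The promoter window of 1 further member is not reported here. Protein sequences were not used here. Numbers of replicates in the labels were checked for pairing, and the main fits did not use them.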

Additional observations from a re-analysis of the deposited data

Results flagged for a closer look

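A single library lay apart from the others of its group of 4, by its gap relative to the range, in 10 of 96 groups of XTH values tested. A rate of 1 in 20 gives 4.8. The members share libraries and the share over all genes was not computed, so this excess cannot be tied to the family. In *baf1* with BRZ the libraries flagged were replicate 4 for *XTH4* (445 normalized reads), replicate 2 for *XTH22* (219.8), and replicate 3 for *XTH28* (357) and *XTH32* (37.9). In *baf1* without BRZ they were replicate 2 for *XTH5* (8.76) and *XTH17* (44.0). In *bes1-D* without BRZ it was replicate 1 for *XTH16* (154). In WT without BRZ they were replicate 1 for *XTH19* (134), replicate 4 for *XTH23* (22.6) and replicate 5 for *XTH32* (27.7). Some of these gaps were small, as for *XTH16* (154 against 183 to 188) and *XTH22* (219.8 against 188 to 193).

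The change of *XTH15* with BRZ differed between *bes1-D* and WT, with an interaction of -1.46 on the log2 scale (limma adjusted p = 0.00163).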

How the results depend on the processing

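A member was followed under the alternatives only in comparisons where it met the criterion of the study, and among the interactions only *XTH15* for *bes1-D*. None of these fold changes turned round. They had been selected in the same data, and the other named changes were not followed. The counts of members that passed moved as follows. With the fold criterion of 1.1 and an unadjusted p under 0.05 they were 2 for *baf1* against WT without BRZ, 6 for *baf1* against WT with BRZ, 8 for BRZ in *baf1*, 10 for BRZ in *bes1-D* and 3 for BRZ in WT, and with a fold of 1.5 they were 4 for *baf1* against WT with BRZ, 4 for BRZ in *bes1-D* and 2 for BRZ in WT. The share of all genes at a fold of 1.5 was not computed. Without a filter on low values the counts of members were 2 for *bes1-D* against WT with BRZ, 2 without BRZ and 0 for BRZ in *baf1*. Without a mean-variance trend they were 3 for *bes1-D* against WT with BRZ and 1 for BRZ in *baf1*. Without the 4 libraries highest in seed storage transcripts, chosen after the data were seen, 2 members passed for *baf1* against WT with BRZ. Over all genes 35 of 16331 passed there, against 8 with all libraries. Leaving out 1 library gave 0 to 2 for *baf1* against WT without BRZ, 0 to 1 with BRZ, 3 to 8 for *bes1-D* against WT without BRZ, 5 to 8 with BRZ, 1 to 4 for BRZ in WT, 2 to 5 for BRZ in *baf1* and 0 to 9 for BRZ in *bes1-D*. The cause was not tested in any of these.

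Deviations of same-numbered libraries from their group means correlated at r of -0.21 to 0.26. Replicate 1 libraries gave r of 0.045 to 0.26 and were the best match in each comparison except BRZ in *baf1*. Replicate 3 libraries were the best match for BRZ in *baf1* and for *baf1* against WT with BRZ. The labels do not say what libraries with the same number share, and the main fits did not use these numbers. With a replicate block 3 members passed for *baf1* against WT without BRZ, 2 with BRZ, 10 for *bes1-D* against WT without BRZ and 5 for BRZ in WT. Over all genes the calls in these 4 comparisons were 301 with the block against 21 without it, 48 against 8, 2251 against 1225 and 452 against 98 of 16331. Calls over all genes fell for BRZ in *bes1-D* (0 against 94), BRZ in *baf1* (207 against 296) and *bes1-D* against WT with BRZ (1767 against 1805). With the block, a library whose number is in only 1 of the groups adds nothing to the fold change. This drops replicate 5 of WT without BRZ and, for *baf1* against WT with BRZ, replicate 4 of *baf1*. The block was not tested apart from leaving these libraries out.

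Over all genes, 430 of 27091 passed without the filter against 1805 of 16331 with it for *bes1-D* against WT with BRZ. The calls were 598 against 1225 for *bes1-D* against WT without BRZ, and 23 against 296 for BRZ in *baf1*. Without the trend 569 passed against 1805 with it for *bes1-D* against WT with BRZ, and 38 against 296 for BRZ in *baf1*. Median-of-ratios scaling put 44.4% of the genes meeting the criterion of the study higher in *baf1* than in WT without BRZ, against 58.1% as deposited, and 46.8% against 63.5% in *bes1-D*. Depth limits *XTH33* most, at a few reads in some groups.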
